A study of Mus musculus with 11 samples.

Results

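The non-coding snoRNA host genes Snhg1, Snhg3, Snhg9, Snhg12, Gas5, Snhg5, Snhg6 and Snhg8 were followed through 11 maps of HIV integration in mouse fibroblasts. The 8 genes were taken by name from 37252 annotated genes, and a site counted for a gene when it lay inside its mm9 model or within 5 kb of either end. Models were found for 6 of the 8 genes, and their windows held 580 of 831994 distinct sites, a distinct site being a chromosome, position and strand. No model named Snhg8 was found, so its start was placed by an exact match of the RefSeq promoter (build GRCm38.p6) to mm9, and the 5 kb on each side of that start held 95 sites. Snhg6 was not analysed here. The 6 models lie apart from each other, but the Snhg9 window also covers Rps2, the gene of a small-subunit ribosomal protein, as well as Ndufb10, the gene of a subunit of mitochondrial complex I, and Rnf151, a RING finger gene.

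Small nucleolar RNAs (snoRNAs) guide the chemical modification of ribosomal and spliceosomal RNAs, or help to process them, and in mammals most are cut out of introns. Non-coding host genes are transcribed by RNA polymerase II and spliced, and the intron is the product that is kept, while many of the spliced host transcripts are unstable. Several of them, Gas5 among them, begin with a pyrimidine-rich start like that of ribosomal protein genes and are strongly transcribed in growing cells. Their short length puts the start, the snoRNA-bearing introns and the end of the gene within a few kb of each other.

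All cells were mouse embryonic fibroblasts (MEF) of strain C57BL/6 and genotype LEDGF-/-, and so lacked the chromatin protein that normally tethers HIV integrase. A plasmid encoding 1 protein fused to the integrase-binding domain of LEDGF (LEDGF-IBD) was electroporated, and all cultures were then infected with HIV, so that virus is led to chromatin bound by the fused protein. The fused proteins were SPT5, the large subunit of the elongation factor DSIF (1 library); NELFA, NELFB, NELFCD and NELFE, the subunits of NELF, which acts with DSIF to hold polymerase in a pause near starts (4 libraries); and 6 proteins of 1 side called Integrator here. That side held INTS9 and INTS11 of the module of the Integrator complex that cleaves nascent RNA, and INTS3, INIP, NABP1 and NABP2 of the SOSS complexes that join it through INTS3. Each fusion had 1 library, so different subunits stand in for replicates and p-values measure the spread between fusions, part of which may be technical. Integration without a fused protein was not analysed here, and the fusions came from plasmids, beside the proteins the cells make themselves.

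Libraries held from 18753 to 197069 distinct sites, and SPT5 held 82038, so that 1 site is worth more per 100000 in a small library than in a large one. The 4 NELF libraries shared a flow cell with nothing else, and SPT5 had another to itself, so an effect of the run and an effect of the protein cannot be told apart. Within the 3 Integrator libraries read on both kinds of instrument the summed host gene level was close: 68.8 on the GAIIx and 67.1 on the HiSeq for NABP1, 78.3 and 68.6 for NABP2, and 24.5 and 29.4 for INTS9, as sites per 100000. RNA was not measured. The windows of 14 fibroblast marker genes held a median over libraries of 167 sites per 100000 sites and Mb, against 23.2 for hepatocyte, 33.2 for neuron and 19.5 for blood markers.

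The sequence around each start is shown because the sites below are placed relative to it; distances count from the mm9 model starts, which lie within 14 bases of the RefSeq starts shown, except in Gas5, where the model starts 744 bases earlier. Each line runs 5′ to 3′ along the host strand from 70 bases before the first transcribed base to the 50th transcribed base, on mm9, at the starts that RefSeq gives. Capitals mark matches to TATAAA or TATATA on either strand, motifs of the TATA-box kind that were chosen after these sequences had been read.
Snhg1 start (chr19:8797907-8798026, plus strand): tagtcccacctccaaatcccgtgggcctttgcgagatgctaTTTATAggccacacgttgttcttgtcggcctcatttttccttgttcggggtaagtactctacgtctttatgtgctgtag
Snhg3 start (chr4:131909552-131909671, minus strand): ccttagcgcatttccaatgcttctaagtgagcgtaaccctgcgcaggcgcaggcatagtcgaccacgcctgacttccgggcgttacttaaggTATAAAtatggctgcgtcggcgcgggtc
Snhg9 start (chr17:24856861-24856980, minus strand): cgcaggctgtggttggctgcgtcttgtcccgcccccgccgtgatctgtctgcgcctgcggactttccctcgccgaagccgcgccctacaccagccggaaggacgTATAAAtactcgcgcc
Snhg12 start (chr4:131864523-131864642, plus strand): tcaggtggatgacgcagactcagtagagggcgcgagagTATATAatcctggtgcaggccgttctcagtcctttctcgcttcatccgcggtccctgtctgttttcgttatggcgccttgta
Gas5 downstream start (chr1:162965227-162965346, plus strand): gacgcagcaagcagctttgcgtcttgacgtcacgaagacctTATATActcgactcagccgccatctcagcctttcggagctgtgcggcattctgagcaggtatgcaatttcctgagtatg
Snhg5 start (chr9:88417686-88417805, minus strand): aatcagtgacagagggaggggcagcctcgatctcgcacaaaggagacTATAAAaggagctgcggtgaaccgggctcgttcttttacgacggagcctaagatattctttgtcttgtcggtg
Snhg8 start (chr3:123211205-123211324, minus strand): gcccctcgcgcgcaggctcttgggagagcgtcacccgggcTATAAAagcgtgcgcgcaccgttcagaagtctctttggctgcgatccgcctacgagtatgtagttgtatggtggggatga

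All 7 host genes with a matched promoter had 1 of the motifs in this window, and 7.30% of 32851 RefSeq promoters cut to the same 120 bases had either. Because the motifs were chosen after these sequences had been read, the contrast is no test of enrichment. The match began 29 bases before the start in Snhg1, where it lies on the opposite strand, 29 before it in Gas5, 32 in Snhg12, 23 in Snhg5 and 30 in Snhg8. In Snhg3 and Snhg9 it began 22 and 34 bases after the start. Gas5 has a second RefSeq start, 565 bases upstream of the one shown, whose window held neither motif. A match is a run of letters and was not tested as a site of any factor.

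The models differ in what surrounds them. Snhg1 (chr19:8797986-8800932, plus strand, 8 annotated snoRNA genes inside) starts 127 bases from Slc3a2, an amino acid transporter subunit gene on the opposite strand. Snhg3 (chr4:131903929-131909601, minus strand, 2 snoRNA genes) overlaps the first part of the mm9 model of Rcc1, the nucleotide exchange factor of Ran, with model starts 81 bases apart on the same strand, while the RefSeq start of Rcc1 lies 7936 bases downstream of that of Snhg3. Snhg12 (chr4:131864593-131866939, plus strand, 4 snoRNA genes) lies 36.989 kb from Snhg3 on the same chromosome. Gas5 (chr1:162964553-162968670, plus strand, 9 snoRNA genes) faces Zbtb37, a zinc-finger gene, with starts 427 bases apart. Snhg9 (chr17:24856476-24856910, minus strand, 1 snoRNA gene) lies inside the annotated span of Rps2, whose RefSeq start on the plus strand is 98 bases from its own. Snhg5 (chr9:88415894-88417721, minus strand, 2 snoRNA genes) has no protein-coding model in its window.

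SPT5 had more sites in the host gene windows, per 100000 of its sites, than any other fused protein. Summed over the 6 models it had 217 (178 sites, 95% exact Poisson interval 186 to 251). NELFA had 63.1, NELFB 93.7, NELFCD 92.1 and NELFE 42.7. The lowest Integrator library, INIP, had 16.1 (4 sites), the median was that between INTS11 with 35.4 and INTS3 with 48.8, and the highest, NABP2, had 69.2. No other library reached the lower bound of the SPT5 interval, while NELF and Integrator libraries overlapped. The means were 72.9 ± 24.6 (SD, n = 4) for NELF and 44.3 ± 21.4 (SD, n = 6) for Integrator, so SPT5 stood 2.98 and 4.90 times as high. SPT5 also had the largest share of sites within 5 kb of protein-coding gene starts, 43.4% against 28.4% to 38.9% for NELF and 15.0% to 28.3% for Integrator. Scaled to those sites instead, the sum was 140 for SPT5, 57.9 ± 14.2 (SD, n = 4) for NELF and 51.0 ± 15.0 (SD, n = 6) for Integrator, ratios of 2.42 and 2.75. Intervals here cover counting error only.

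**Figure D1:**
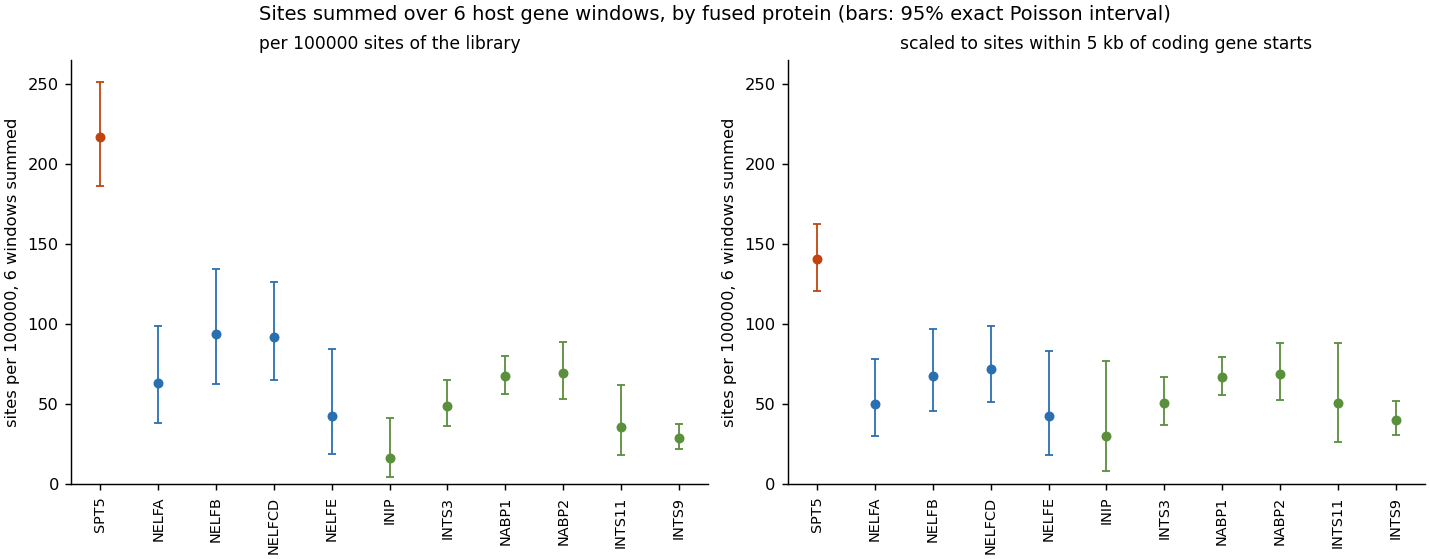
Sites per 100000 summed over the windows of 6 snoRNA host genes, for each fused protein, with 95% exact Poisson intervals; left, per 100000 sites of the library, right, scaled to sites within 5 kb of protein-coding gene starts. SPT5 (217 left, 140 right) lies above each of the 10 other libraries in both panels.

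Window by window, SPT5 was the highest of the 11 libraries in 5 of 7 windows, with NELFB above it in Snhg12 and Snhg8. Among all 7995 genes that average 3 sites or more SPT5 was above each of the 10 others in 17.5%, and among the 1224 that average 10 or more in 15.2%. SPT5 was above each of the 4 NELF libraries in 5 of 7 windows, against 27.4% of the 7995 genes and 25.3% of the 1224. Every NELF library was above every Integrator library in 0 of 7 windows, against 4.03% and 10.5%. All 7 windows pass the lower minimum also when SPT5 is left out. Snhg1 and Snhg3 pass the higher one only with SPT5, Snhg9 passes it either way, and Snhg12, Gas5, Snhg5 and Snhg8 miss it.

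The Snhg1 window held 34 SPT5 sites, 41.4 per 100000. NELFA had 13.3 per 100000, NELFB 19.4, NELFCD 16.96 and NELFE 5.33, and the Integrator libraries ran from 4.01 in INIP through a median of 8.57 to 12.7 in NABP1. The SPT5 interval, 28.7 to 57.9, lay above every other library's value. Snhg1 carries more snoRNAs than any other of these models but Gas5.

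In the Snhg3 window SPT5 had 30 sites, 36.6 per 100000. The NELF values per 100000 were 16.6 in NELFA, 12.9 in NELFB, 21.8 in NELFCD and 10.7 in NELFE, and the Integrator libraries ran from 0 in INIP through a median of 12.6 to 15.9 in NABP2. SPT5 was the highest, and NELF and Integrator overlapped. The exact Poisson interval of the 0 in INIP, a library of 24907 sites, reaches 14.8 per 100000, and a limit of 3 counts gives 12.04. The other SOSS libraries, INTS3 at 13.5, NABP1 at 14.3 and NABP2 at 15.9, lie above the limit of 3 counts. Their intervals, with lower bounds of 7.19, 9.44 and 8.68, overlap that of INIP, so a lower level in INIP is not settled at this depth. Snhg3 makes the H/ACA snoRNAs of the U17 kind, annotated here as Snora73a and Snora73b.

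The Snhg9 window had the most SPT5 sites, 42, or 51.2 per 100000. NELFA had 23.2 per 100000, NELFB 16.1, NELFCD 14.5 and NELFE 10.7, and the Integrator libraries ran from 2.95 in INTS11 through a median of 11.1 to 25.5 in NABP1. In this window INTS3, NABP1 and NABP2 (17.6, 25.5 and 20.4) were as high as the NELF libraries, while INIP, INTS11 and INTS9 were at 4.57 or less. Of the 42 SPT5 sites 22 lay inside the Rps2 model. Outside it SPT5 kept 20 sites, 24.4 per 100000, against 3.23 to 9.96 in NELF libraries and 1.52 to 15.9 in Integrator libraries. Those 20 do not isolate Snhg9: 16 lay in the Ndufb10 model, 3 in the Rnf151 model and 1 in no protein-coding model, and the short Snhg9 model itself held 0 SPT5 sites, 2 NELF sites and 3 Integrator sites.

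Gas5 and Snhg5 had the highest ratios of SPT5 to the NELF mean, 4.64 and 4.24. Against the Integrator mean the ratio was 9.59 in Snhg5, 7.88 in Gas5 and 7.86 in Snhg8. In the Gas5 window SPT5 had 26 sites, 31.7 per 100000, NELFA 6.64, NELFB 12.9, NELFCD 2.42 and NELFE 5.33, and Integrator libraries from 2.27 (NABP2) through a median of 4.04 to 5.89 (INTS11). In the Snhg5 window SPT5 had 25 sites, 30.5 per 100000, NELFA 0, NELFB 6.46, NELFCD 16.96 and NELFE 5.33, and Integrator libraries from 0 (INIP) through 3.16 to 5.89 (INTS11). SPT5 was alone at the top in both windows, and its lower bounds, 20.7 and 19.7, lay above every other value. These libraries other than SPT5 rest on 1 to 9 sites each where they have any, so their order among themselves is not resolved. Gas5 encodes a run of box C/D snoRNAs, and Snhg5 hosts the U50 snoRNAs, annotated here as SNORD50.

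Snhg12 and Snhg8 were the windows in which 1 NELF library, NELFB, was above SPT5. In Snhg12, host of both H/ACA and C/D snoRNAs, SPT5 had 21 sites, 25.6 per 100000, NELFA 3.32, NELFB 25.8, NELFCD 19.4 and NELFE 5.33, and Integrator libraries from 0 (INTS11) through a median of 4.08 to 15.9 (NABP2). In the Snhg8 start window SPT5 had 30 sites, 36.6 per 100000, NELFA 19.9, NELFB 48.4, NELFCD 24.2 and NELFE 5.33, and Integrator libraries from 2.27 (NABP2) through a median of 4.80 to 7.27 (INTS3). NELFE was low in both, with 1 site each, which a library of 18753 sites cannot set apart from several times that level. The SPT5 and NELFB intervals overlapped in both windows, and the NELF means, 13.5 ± 10.91 in Snhg12 and 24.5 ± 17.9 in Snhg8 (SD, n = 4), were below the SPT5 values.

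**Figure D2:**
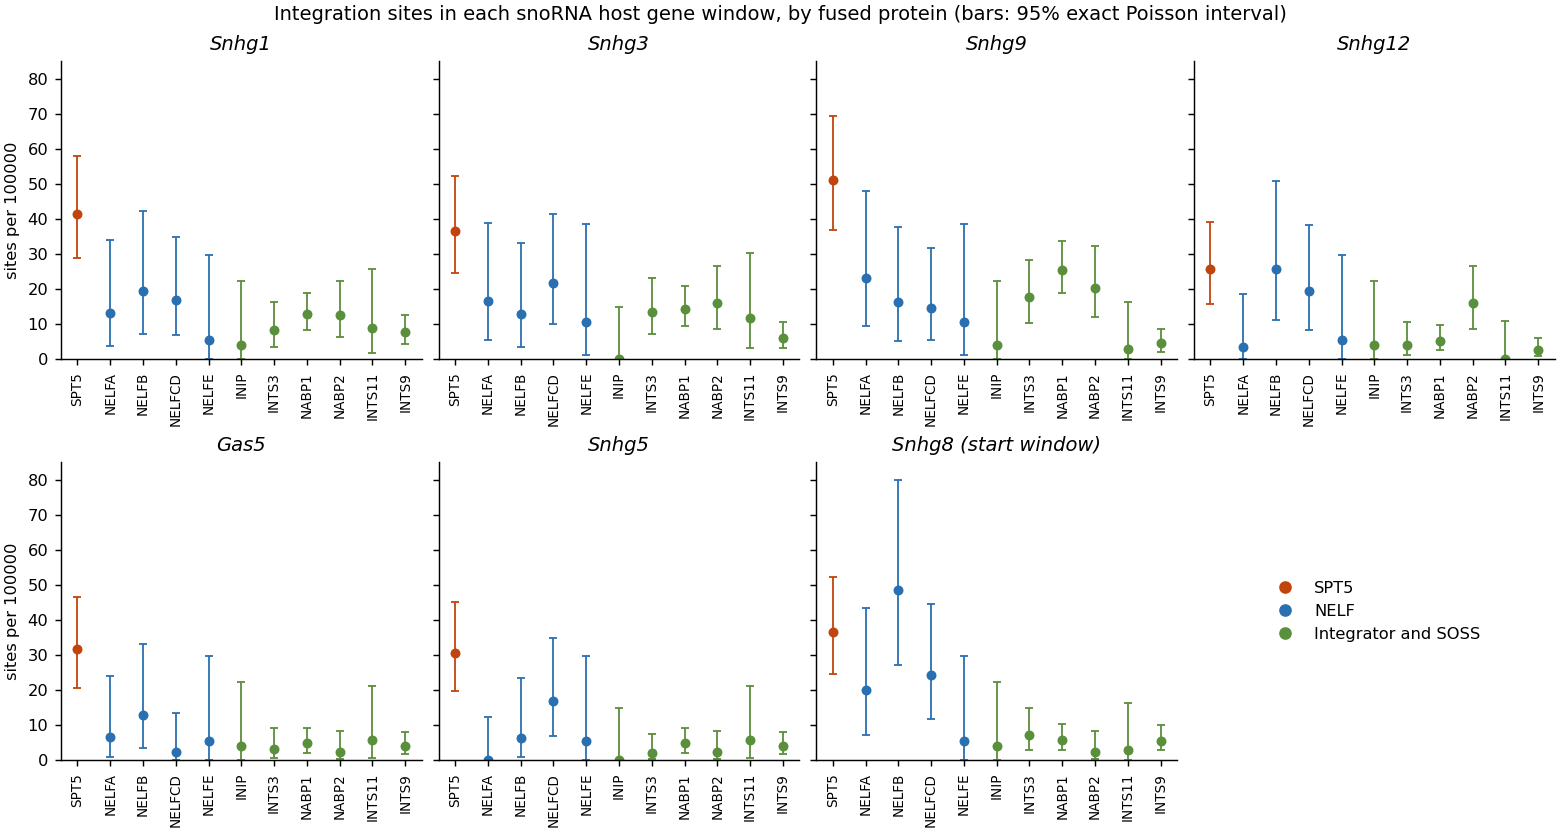
Sites per 100000 in the window of each snoRNA host gene, for each fused protein, with 95% exact Poisson intervals, coloured by side. SPT5 is the highest point in 5 of 7 panels, and NELFB reaches 25.8 in Snhg12 and 48.4 in Snhg8, beside 25.6 and 36.6 for SPT5.

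Windows differ in length, so levels were compared between genes per kb of window. For SPT5 the order, in sites per 100000 and kb, was Snhg9 (4.91), Snhg8 (3.66), Snhg1 (3.20), Snhg5 (2.58), Snhg3 (2.33), Gas5 (2.24) and Snhg12 (2.07). Over the NELF libraries Snhg8 led with 2.45 ± 1.79 (SD, n = 4) and Gas5 was last with 0.484 ± 0.314, and over the Integrator libraries Snhg9 led with 1.199 ± 0.942 (SD, n = 6) and Snhg5 was last with 0.269 ± 0.181. Neighbours in the NELF and Integrator orders differed by less than the larger of their SDs. Gas5 and Snhg5 were the 2 lowest on both of those sides.

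The fit across all genes (limma on log2 of sites per 100000 plus 1, in which SPT5 with its 1 library is assumed to vary like the others) put every window higher in SPT5 and called none. Against NELF the log2 differences on that scale, which understates the change of low genes, were 1.65 for Snhg1 (SE 0.869), 1.23 for Snhg3 (SE 1.23) and 1.66 for Snhg9 (SE 0.974). With the minimum lowered to 3 they were 1.27 for Snhg12 (SE 1.22), 2.24 for Gas5 (SE 1.002), 2.54 for Snhg5 (SE 1.34) and 0.90 for Snhg8 (SE 0.916). The Benjamini-Hochberg adjusted limma p was 0.960 for the first 3 windows and 0.983 for the other 4. The fit called 0% of the 1224 genes and 0% of the 7995 in this comparison, with 51 and 252 of them at an unadjusted p under 0.05, so a count of 0 host genes is the count of all genes too. With voom weights, the alternative that gives weight to larger counts, the genes called higher were 0 of 1224 and 1 of 7995 (0.0125%), and no host gene was among them.

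Against Integrator the differences were larger in every window. They were 2.16 for Snhg1 (SE 0.840), 2.17 for Snhg3 (SE 1.19), 2.35 for Snhg9 (SE 0.941), 2.53 for Snhg12 (SE 1.18), 2.74 for Gas5 (SE 0.968), 3.15 for Snhg5 (SE 1.29) and 2.81 for Snhg8 (SE 0.885). No window passed, with limma adjusted p from 0.340 to 0.444 for the 3 windows at the higher minimum and from 0.625 to 0.720 for the 7 windows at the lower. Again limma called 0% of genes at either minimum, with 139 of 1224 and 549 of 7995 at an unadjusted p under 0.05. With voom weights 10.1% of the 1224 genes and 7.39% of the 7995 were higher in SPT5. All 7 windows were called higher at the lower minimum, Snhg8 as a feature beside the 7995, with voom adjusted p from 0.00089 to 0.028. The call against Integrator thus rests on how the model weighs counts, while the direction was the same.

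NELF against Integrator shares its libraries with both comparisons above. Here limma called 7.68% of 1224 genes higher in NELF and 0.408% lower, and at the lower minimum 1.3% and 0.275% of 7995. No host gene was among them. Differences were 0.51 for Snhg1 (SE 0.502), 0.94 for Snhg3 (SE 0.708), 0.69 for Snhg9 (SE 0.563), 1.26 for Snhg12 (SE 0.704), 0.50 for Gas5 (SE 0.579) and 0.60 for Snhg5 (SE 0.772), with limma adjusted p from 0.431 to 0.764. Snhg8 stood nearest to the threshold, with a difference of 1.91 (SE 0.529) and a limma adjusted p of 0.0739. That p was 0.0097 without NELFE, 0.015 with a pseudocount of 5 and 0.0022 with voom weights, which called 3.8% of the 7995 genes higher in NELF and 11.9% of the 1224. Over its other alternatives it ran from 0.0663 to 0.359. All genes had a median difference of 0.49 for SPT5 minus NELF, 0.39 for SPT5 minus Integrator and −0.08 for NELF minus Integrator at the lower minimum. Scaling to sites near starts moved these medians to 0.18, −0.38 and −0.54. Counted from the median of all genes, the 7 windows lay 1.77 to 2.76 above it for SPT5 minus Integrator and 1.66 to 2.79 above it with that scaling, and 0.41 to 2.06 and 0.40 to 1.95 above it for SPT5 minus NELF. For NELF minus Integrator they lay 0.58 to 1.99 above it, and 0.49 to 1.90 with that scaling.

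**Figure D3:**
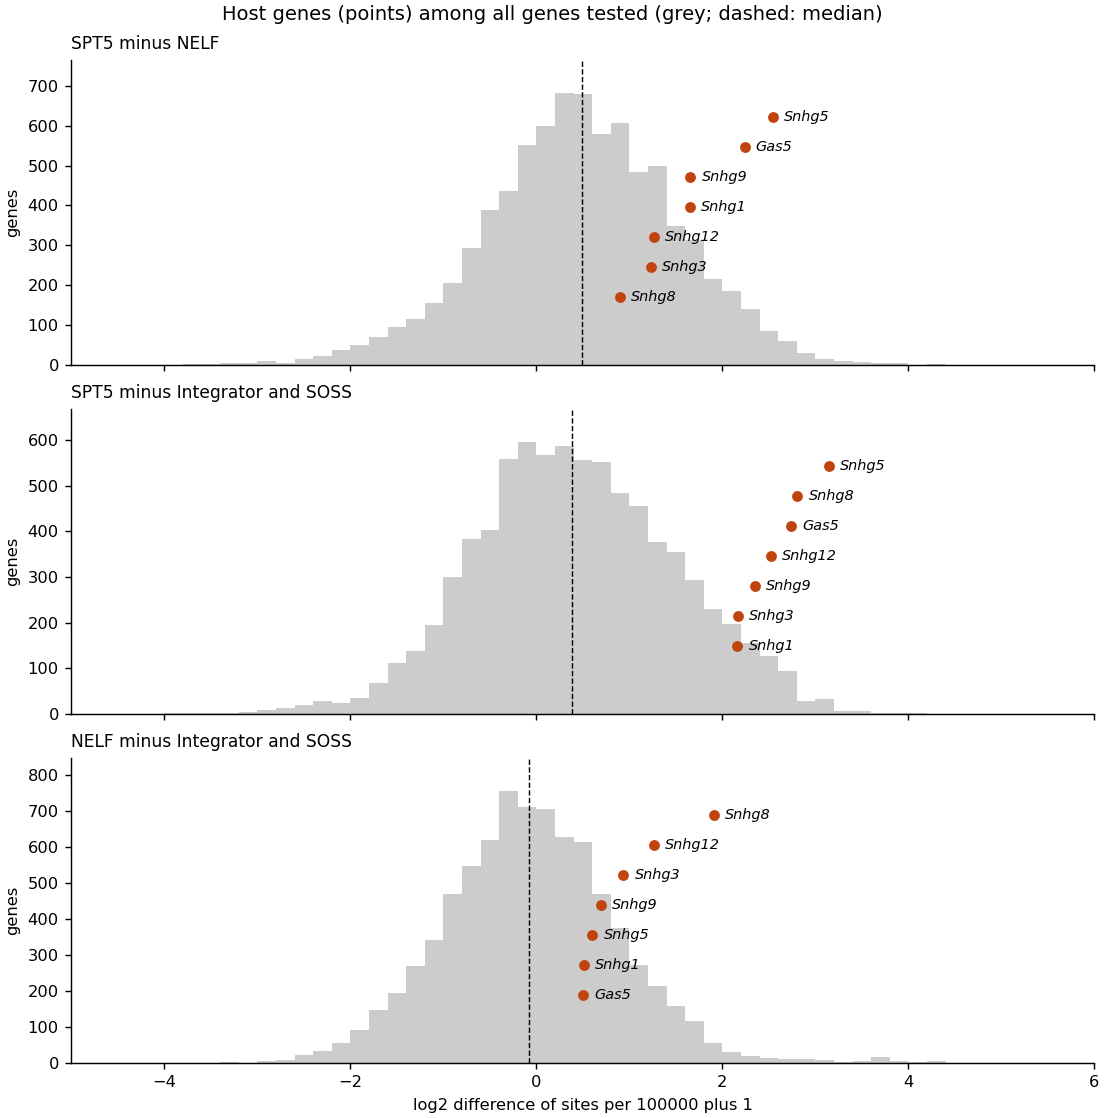
Log2 differences of sites per 100000 plus 1 for the 7 host gene windows (points, spread vertically for legibility) on the distribution of 7995 genes that average 3 sites or more (grey, genes per bin of 0.2), with the median of all genes dashed. The windows lie between 2.16 and 3.15 for SPT5 minus Integrator, where the median of all genes is 0.39.

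Inside the windows the proteins lay in different places: most NELF sites lay within 1 kb of a start, and most SPT5 sites lay more than 1 kb downstream of one, inside the gene or past its end. Of the NELF sites in the 6 windows 60 of 94 lay within 1 kb of the annotated start, a mean share of 61.1% ± 7.504 (SD, n = 4 libraries). SPT5 had 40 of 178 there, 22.5% (95% exact binomial interval 16.6 to 29.3), and Integrator 71 of 308, a mean of 26.9% ± 13.3 (SD, n = 6). The 4 NELF shares, 63.2% in NELFA, 65.5% in NELFB, 65.8% in NELFCD and 50% in NELFE, all lay above the SPT5 interval. They met the Integrator shares at INTS11, with 6 of its 12 sites near starts, while the other Integrator shares ran from 13.1% to 33.3%. Left without Snhg9, where the start of Rps2 lies close by, the shares were 65.9% ± 11.1 for NELF, 24.3% for SPT5 and 30.5% ± 13.7 for Integrator.

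A narrower zone is the first 500 bases of transcription, which include the place where paused polymerase is held. They took in 33 of 94 NELF sites (33.0% ± 12.6, SD, n = 4), 7 of 178 SPT5 sites (3.93%, interval 1.60 to 7.93) and 16 of 308 Integrator sites (5.91% ± 5.81, SD, n = 6). More than 1 kb downstream of the start lay 62.9% of SPT5 sites (interval 55.4 to 70.0), 24.8% ± 9.85 of NELF sites and 47.8% ± 8.67 of Integrator sites. SPT5 lay above all 10 other libraries in that zone, though NABP2, at 57.4%, lay inside the SPT5 interval. Left without Snhg9, SPT5 had 75.7% there, with NABP2 at 72.1% and INTS3 at 70% close below it. Of the 178 SPT5 sites 58 were inside a model more than 1 kb from its start, and 55 were past the annotated end of a model. The downstream share of SPT5 varied between windows, from 21.4% in Snhg9, 43.3% in Snhg8 and 50% in Snhg1 to 92.3% in Gas5 and 100% in Snhg3. No test was made of these shares, since the windows were chosen with results known.

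Other genes of like length were counted for comparison, outside the host gene windows. They were 834 protein-coding, lincRNA and processed-transcript genes of 435 to 5673 bases that average 3 sites or more. Sites were added gene by gene, so a site in overlapping windows counted more than once. Clustered genes, such as histone genes, were not set aside, whereas the host gene windows do not overlap each other. How this moves the shares was not tested. In these genes SPT5 had 31.6% within 1 kb of starts, NELF 35.4% ± 2.46 and Integrator 21.9% ± 3.72. The first 500 bases held 8.86% of SPT5 sites, 11.4% ± 1.17 of NELF sites and 5.67% ± 1.43 of Integrator sites. So the NELF share near starts was higher in the host gene windows than in these genes in each of the 4 NELF libraries. The pooled SPT5 share was lower, but not in every window: it was 0% in Snhg3, 7.69% in Gas5 from the model start, 16.7% in Snhg9 and 19.05% in Snhg12, against 40% in Snhg5, 50% in Snhg1 and 56.7% in Snhg8, which is not among the 6 pooled. For NELFE, with 8 sites, the binomial interval of 15.7 to 84.3 includes the mean over the other genes. More than 1 kb downstream, the other genes had 49.0% of SPT5 sites, 38.5% ± 1.64 of NELF sites and 51.9% ± 1.96 of Integrator sites. In those genes SPT5 was thus not above the Integrator mean.

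**Figure D4:**
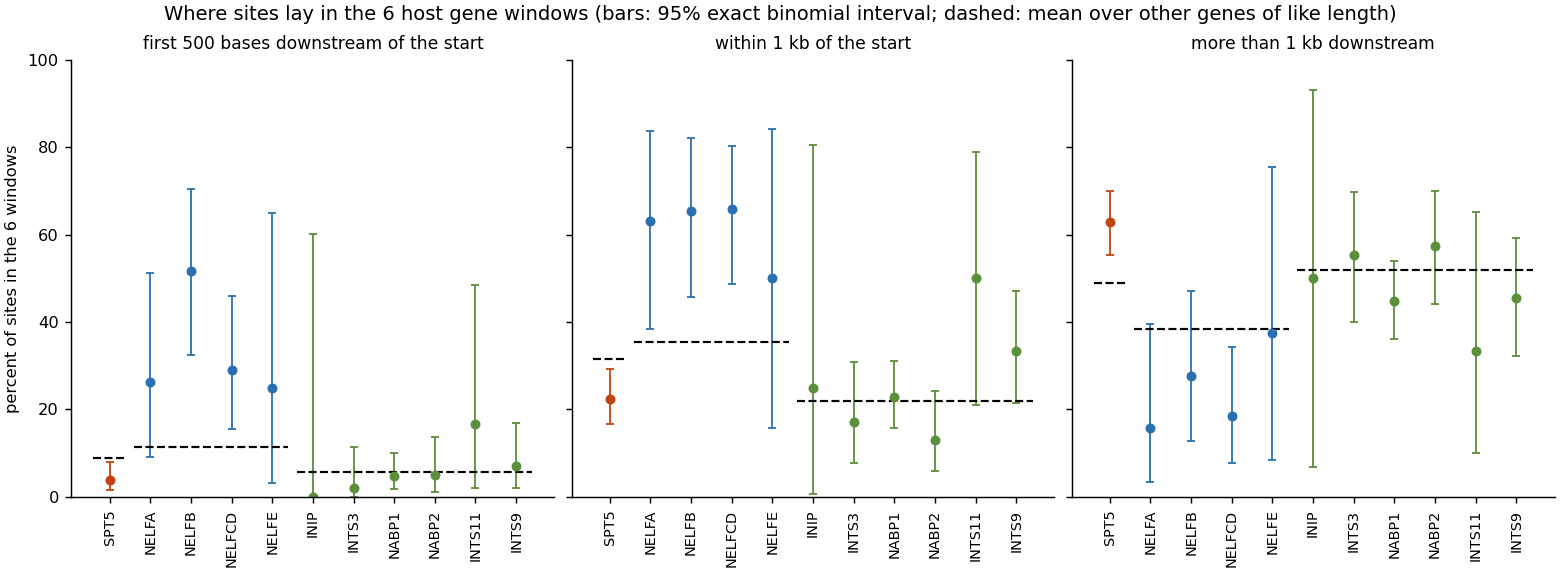
Percent of each library's sites in the 6 host gene windows that fall in the first 500 bases downstream of the start, within 1 kb of it on either side, and more than 1 kb downstream, with 95% exact binomial intervals; dashed lines are means over 834 other genes of like length. NELF points lie at 50% to 65.8% in the middle panel, where SPT5 lies at 22.5%.

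The same order held in each window: the NELF share within 1 kb of the start was above that of SPT5 in 7 of 7 windows, and the SPT5 share more than 1 kb downstream was above that of NELF in 7 of 7. These counts use the mm9 model starts and set 4 pooled NELF libraries against 1 SPT5 library. How many other genes show this order was not counted, so whether it is particular to host genes was not tested. The shares of the 834 other genes of like length had the same order. Within 1 kb of starts they were 35.4% for NELF and 31.6% for SPT5. More than 1 kb downstream they were 38.5% for NELF and 49.0% for SPT5. Single windows rest on few sites, as with 2 of 8 NELF and 2 of 26 SPT5 sites near the start in Gas5, and 21 of 32 and 17 of 30 in Snhg8. In Snhg12, of 18 NELF sites 13 lay in the first 500 bases, while the first of 21 SPT5 sites lay 551 bases in and 17 of the 21 were more than 1 kb downstream. The median position was 329.5 bases from the start for NELF, 1622 for SPT5 and 1606.5 for Integrator. The stretch below runs 5′ to 3′ on the plus strand from base 101 to base 400 of Snhg12, and capitals mark the 9 bases at which NELF libraries had a site; 3 NELF libraries contributed, SPT5 had 0 sites in it and Integrator libraries had 4.
Snhg12 NELF sites (chr4:131864694-131864993): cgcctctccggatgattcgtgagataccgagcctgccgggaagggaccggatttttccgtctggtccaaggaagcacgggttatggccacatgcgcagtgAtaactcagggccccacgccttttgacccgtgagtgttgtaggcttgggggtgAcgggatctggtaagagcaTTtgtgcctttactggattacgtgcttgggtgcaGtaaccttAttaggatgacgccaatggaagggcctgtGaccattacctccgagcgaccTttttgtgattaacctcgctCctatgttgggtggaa

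In Snhg3 all 30 SPT5 sites lay at least 1237 bases downstream of the start, with a median of 2544, and 8 lay past the annotated end. NELF had 12 of 20 sites within 1 kb of the start and a median of 348, and Integrator had 24 of 70 and a median of 1488.5. The sites past the end lie near the RefSeq start of Rcc1 or downstream of it, and since the Rcc1 model also begins 81 bases from Snhg3, sites in the window cannot be assigned to either gene alone. The stretch below is the one in which the SPT5 sites of Snhg3 begin. It runs 5′ to 3′ on the minus strand, from base 1231 to base 1530, with capitals at the 5 bases that SPT5 sites hit; NELF had 0 sites in it and Integrator had 5.
Snhg3 SPT5 sites (chr4:131908071-131908370): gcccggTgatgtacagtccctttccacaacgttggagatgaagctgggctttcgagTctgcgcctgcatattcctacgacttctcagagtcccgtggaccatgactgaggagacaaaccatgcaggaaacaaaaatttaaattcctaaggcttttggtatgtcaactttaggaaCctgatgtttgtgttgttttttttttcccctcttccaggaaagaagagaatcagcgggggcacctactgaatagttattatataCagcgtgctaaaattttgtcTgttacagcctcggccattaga

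In Gas5 the picture depends on which start is used. From the start of the mm9 model NELF had 2 of 8 sites within 1 kb, but from the downstream RefSeq start, 744 bases in, it had 8 of 8, with a median distance of 296.5 bases. From that start SPT5 had 5 of 26 sites within 1 kb and 20 more than 1 kb downstream, with a median of 2200.5, and Integrator had 14 of 25 within 1 kb and a median of 625. Of the SPT5 sites 9 lay past the end of the model, against 0 NELF sites and 2 Integrator sites.

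Snhg5, Snhg1 and Snhg8 had SPT5 sites on both sides of the start. In Snhg5 8 of 10 NELF sites and 10 of 25 SPT5 sites lay within 1 kb, and 11 of the 25 SPT5 sites lay past the annotated end. In Snhg1, which shares its start region with Slc3a2, the counts were 13 of 18 for NELF, 17 of 34 for SPT5 and 11 of 62 for Integrator. In Snhg8 they were 21 of 32, 17 of 30 and 12 of 33. In these 3 windows no SPT5 site lay more than 1 kb upstream of the start. Snhg9 was the exception on that side, with 26 of 42 SPT5 sites, 9 of 20 NELF sites and 55 of 94 Integrator sites more than 1 kb upstream. Of those, 16 SPT5, 7 NELF and 37 Integrator sites lay in the Ndufb10 model, and 9, 2 and 13 in the Rps2 model.

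**Figure D5:**
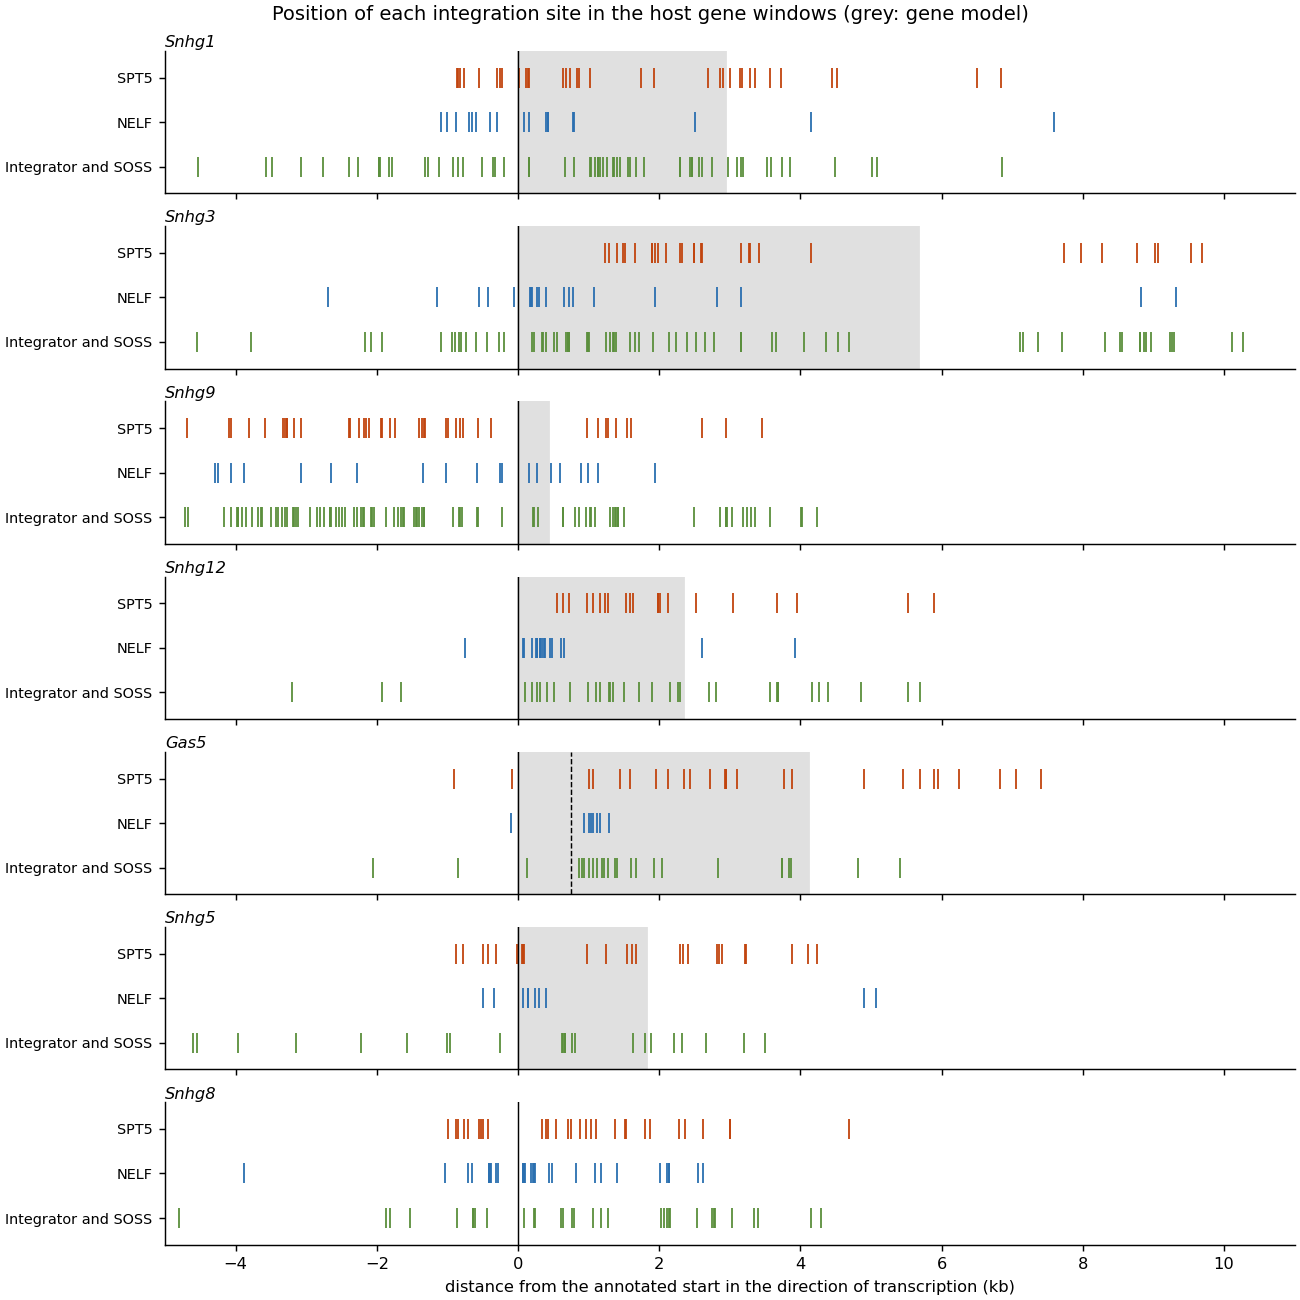
Position of every integration site in the 7 host gene windows, in kb from the annotated start along transcription, by side; the gene model is shaded and the dashed line in Gas5 is the downstream RefSeq start. NELF marks cluster at the start of Snhg12, Snhg5 and, at the dashed line, Gas5, while the first SPT5 marks of Snhg12 and Snhg3 lie at 551 and 1237 bases.

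Strand was close to even on each side. Sites had the orientation of the host gene in 52.4% of SPT5 sites (95% exact binomial interval 45.4 to 59.4), 49.2% of NELF sites (40.2 to 58.3) and 53.4% of Integrator sites (47.9 to 58.8) over the 7 windows. Within the 6 gene models snoRNA sequences make up 14.0% of bases and held 12% of SPT5 sites (9 of 75), 13.7% of NELF sites (7 of 51) and 17.9% of Integrator sites (21 of 117). Exons make up 50.3% of bases and held 58.7%, 41.2% and 52.1%. A base counted as exon when an exon of any annotated transcript covered it, even where another transcript has an intron. This left Snhg1 with 0 intron bases outside snoRNAs and Gas5 with 358 of 4118, so the intron shares come almost wholly from the other models. Introns outside snoRNAs make up 35.7% of bases and held 29.3% of SPT5 sites (22 of 75, 95% exact binomial interval 19.4 to 40.98), 45.1% of NELF sites (23 of 51, 31.1 to 59.7) and 29.9% of Integrator sites (35 of 117, 21.8 to 39.1). The NELF intron share was the highest, with an interval that overlaps both others, and 12 of its 23 sites lay in Snhg12. Of 658 positions hit in the 7 windows 16 (2.43%) were hit in more than 1 library, against 0.638% of all positions in the genome. No share was counted over other windows of like site density, so whether this is particular to host genes was not tested.

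Other genes of snoRNA biology were read from lists of names. Of 15 other non-coding host genes 14 were found and 5 reached a mean of 3 sites per library, and limma called 0 of the 5 in any comparison. Their median log2 difference for SPT5 minus Integrator was 2.58, against 0.39 over all genes, and for SPT5 minus NELF 1.22 against 0.49. The minimum counts SPT5 sites, for these genes as for all genes, so a gene can enter through a high SPT5 count. Whether listed genes pass it without SPT5 was not checked, here or in the lists that follow. Zfas1, host of C/D snoRNAs and annotated as 1500012F01Rik, had 46.3 sites per 100000 in SPT5, 21.9 ± 10.92 (SD, n = 4) in NELF and 7.72 ± 5.01 (SD, n = 6) in Integrator. Snhg7 had 26.8, 13.9 ± 3.83 and 5.002 ± 4.25, and Snhg4 had 28.04, 13.3 ± 7.11 and 4.87 ± 3.86. SPT5 was above the mean of both other sides by more than 1 SD in all 3. These 3 were picked for the most sites over all libraries, SPT5 included, so a high SPT5 value is partly selected. The share of all genes that do so was not counted, and this is no test of a high SPT5 level.

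Of 33 protein-coding host genes 24 were tested at the lower minimum, and their median differences were 2.39 for SPT5 minus Integrator and 1.38 for SPT5 minus NELF. The only one that limma called was Hspa8, a heat shock cognate chaperone, higher in NELF than in Integrator by 2.01 (SE 0.466, adjusted p = 0.0227), with 40.2 sites per 100000 in SPT5, 29.0 ± 12.5 in NELF and 6.79 ± 4.34 in Integrator. Rcc1 (46.3, 22.5 ± 5.34 and 16.3 ± 8.52) and Rps2 (51.2, 17.6 ± 6.61 and 13.5 ± 9.497) had the most sites, and both share sites with Snhg3 and Snhg9. Of 16 genes for snoRNP proteins 15 were found and 4 tested, with 0 called and median differences of 0.47 for SPT5 minus Integrator and 1.498 for SPT5 minus NELF. Nop56, a core protein of C/D snoRNPs and itself a host gene, had 46.3, 12.1 ± 4.73 and 8.11 ± 4.31, while Nop58, its partner, had 9.75, 7.37 ± 9.52 and 8.23 ± 2.27, and Dkc1, the pseudouridine synthase, had 6.09, 6.37 ± 4.98 and 3.50 ± 1.32.

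The genes most like the mean of Snhg1, Snhg3 and Snhg9 over the 11 libraries, by Pearson's r of log2 of sites per 100000 plus 1 among 1210 genes, were Mknk2 (0.932), Cdkn1b (0.931), Slc38a2 (0.930), Scx (0.929) and Jund (0.928). The averaged genes are the host genes that pass the higher minimum, and Snhg1 and Snhg3 pass it only with SPT5. A high SPT5 value is thus partly selected into their mean, so likeness to that mean is no test of a high SPT5 level. The points also share library depth, and r is given as a description. Mknk2, a kinase of the initiation factor eIF4E, had 60.9 sites per 100000 in SPT5 and means of 33.2 in NELF and 21.3 in Integrator. Slc38a2, an amino acid transporter gene, had 49.98, 17.4 and 8.17.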

How the data were processed

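HIV integration sites were mapped in 11 libraries. Per the labels' protocols, LTR junctions were amplified in a linker PCR and a nested PCR and read on GAIIx or HiSeq machines. The build was mm9, per the submitters' processing notes. Neither an aligner nor its filters are named in the sources used here. Deposited values are positions rather than counts: per the file headers, an entry gives where the genome begins after the LTR, and its strand. From 873534 entries, repeats of a position and strand within a library were dropped. Sites were counted over 32044 GENCODE genes, pseudogenes left out, on chromosomes 1 to 19 and X, with 5 kb on each side. Limma 3.58.1 in R 4.3.3, with trend and robust options, was fitted to log2 of the sites per 100000 after adding a pseudocount of 1. Genes had to average 10 sites over the libraries, or 3 as an alternative; p-values were Benjamini-Hochberg adjusted, with a threshold of 0.05. The Snhg8 window entered as 1 more feature at the lower minimum. The fit was tested on simulated data. Named genes are all members, annotated neighbours, the 5 most alike genes and, of each list, the 3 with most sites. Members and lists were chosen with earlier results of these data known. Intervals are at 95%.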

Additional observations from a re-analysis of the deposited data

Results flagged for a closer look

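In groups of 4 libraries, a value was singled out when its gap to the next was most of the group's range (Dixon's 95% criterion); 2 of 16 groups had one, where chance gives about 1 in 20. NABP2 had 15.9 sites per 100000 (14 sites) in the Snhg12 window, above the other SOSS libraries, which lay between 4.01 and 5.31. INIP had 0 sites in the Snhg3 window (exact Poisson interval up to 14.8 per 100000), below 13.5 to 15.9 in the other SOSS libraries.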

How the results depend on the processing

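For SPT5 against NELF the 0 genes called by limma became 1 with voom weights at a minimum mean of 3 and 2 with libraries thinned to the smallest. For SPT5 against Integrator 0 became 124 with voom weights, 623 with voom weights at a minimum mean of 3, 1 when scaled to sites near starts and 5 when thinned. For NELF against Integrator 99 genes became 328 with voom weights at a minimum mean of 3, 182 when scaled to sites near starts, 151 with a pseudocount of 5, 26 with a minimum mean of 20, 7 with flanks of 1 kb and 5 with no flanks; scaled to sites near starts, the calls were 68 higher and 114 lower in place of 94 and 5. With that scaling the median NELF minus Integrator difference of the 1224 genes went from 0.011 to −0.558. The cause of the changed counts was not tested. Leaving out 1 library at a time moved none of these counts by more than 1.5 times.

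Of 270 alternative values for host genes in the comparisons of SPT5, 268 stayed positive. Many of these could not differ from the main value. Leaving out a NELF library does not alter SPT5 minus Integrator, and leaving out an Integrator library does not alter SPT5 minus NELF. All reuse the same SPT5 library, so the tally does not measure how SPT5 itself would vary. Both negative values are Snhg9 with libraries thinned to 18753 sites, −0.51 against NELF and −0.10 against Integrator, where the draw kept 2 of 42 SPT5 sites. In these comparisons calls arose only with voom weights, for all 7 windows against Integrator. In NELF against Integrator, Gas5 turned to −0.0073 scaled to sites near starts and −0.46 thinned, Snhg1 to −0.045 scaled to sites near starts, and Snhg9 to −0.015 without the Rps2 model. The scaling to sites near starts lowers all genes alike: counted from the median of all genes, Gas5 was at 0.53 with it and 0.58 before, and Snhg1 at 0.49 and 0.59.

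The SPT5 sum of 217 was 141.4 with flanks of 1 kb, 91.4 with no flanks, 140.4 scaled to sites near starts, 165.8 without Snhg9 and 253.5 with the Snhg8 window. With no flanks it was 39.9 for NELF and 18.3 for Integrator. Shares near the start became 8.43% for SPT5, 39.3% for NELF and 10.2% for Integrator within 500 bases, and 48.3%, 76.4% and 53.7% within 2 kb, NELF above both others each time. No paired analysis was possible because the labels number no replicates. Small libraries limit single windows: most NELF and many Integrator values rest on under 10 sites.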
